A study of Mus musculus with 8 samples.

Results

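The cytosolic ribosomal protein genes were read from every non-control probe whose gene name in the scanner files is Rpl or Rps followed by digits, with an optional letter ending, or is Rplp0, Rplp1, Rplp2 or Rpsa. The Rps6k kinases, whose names begin alike, were left out. This gave 187 probes of 81 genes among 39429 probes of 30139 gene names, of which 46 genes encode proteins of the large subunit, 32 of the small subunit and 3 of the stalk. The arrays hold 180 of these probes, for 79 genes, well above background in at least 4 of the 8 mice, against 23236 of all probes, and those were compared between the diets.

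Ribosomal proteins are the protein part of the cytosolic ribosome, which translates nuclear-encoded mRNA. The large subunit forms peptide bonds, the small subunit decodes the mRNA, and the acidic stalk proteins Rplp0, Rplp1 and Rplp2 recruit translation factors. Each protein occurs about once per ribosome, apart from the stalk proteins Rplp1 and Rplp2, and the genes are transcribed in step in most tissues. Their mRNAs commonly start with a run of pyrimidines at the 5′ end, through which the mTOR pathway and the RNA-binding protein Larp1 set their translation. The mouse genome also holds many processed pseudogene copies of ribosomal protein mRNAs, so a short probe can match several near-identical sequences, and a value for such a gene is uncertain to that extent. In heart muscle, Rpl3l is a striated muscle paralog of Rpl3.

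Left ventricle RNA came from male mice of the inbred strain C57Bl/6j, put on chow with 0.4% sodium (normal salt, mice N1 to N4) or 0.05% sodium (low salt, mice L1 to L4) at 8 weeks of age and killed after 8 weeks, at 16 weeks of age. All mice were anaesthetised with pentobarbital sodium and bled before tissue of the septum, free wall and apex was taken. RNA was amplified, labelled with Cy3 (mice 1 and 3 of each diet) or Cy5 (mice 2 and 4), and hybridised to 4 two-colour Agilent arrays, each with 2 mice of 1 diet. Diet therefore differed only between arrays. Values are normalised log2 intensities, differences are low salt minus normal salt, and a probe was called when its p-value from limma, adjusted by Benjamini-Hochberg over all 23236 probes, was under 0.05. RNA was from whole tissue, so fewer cells of a type and less RNA per cell cannot be told apart.

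Across the samples 53.0% to 66.3% of spots were well above background, and 0 ribosomal protein probes were saturated. Of the ventricular cardiomyocyte markers 8 of 8 were kept, and the atrial markers, of which 5 of 6 were kept and Bmp10 was not, deviated by -0.88 to 1.27 on normal salt and by -1.23 to 0.42 on low salt. Values are the mean deviation of a list's probes from their mean over the mice. The lists whose deviations did not overlap between the diets were those of macrophage, skeletal muscle and endothelial markers. Macrophage markers (5 of 5 genes kept) lay at -0.27 to -0.07 on normal and 0.07 to 0.32 on low salt. Skeletal muscle markers (3 of 5 kept) lay at -0.43 to -0.19 and 0.13 to 0.38. Myh1 and Myh4 were not kept, so that list rests on Ckm, Tnnt3 and Acta1, and whether it reads skeletal muscle was not tested. Endothelial markers (7 of 7 kept) lay at -0.06 to 0.35 and -0.28 to -0.07. In each of the 9 marker lists 0 probes were called, and the part of these lists in the values below was not tested.

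The probes on which the comparison turns are shown first. Overlapping probes of Rpl35 and of Rps28 read nearly the same bases and had differences of opposite sign. For Rpl35, whose protein lies near the exit of the nascent peptide on the large subunit, the 2 probes overlap over 54 bases and 53 of those match; the first 30 bases of each 60-base probe are given, with the matching bases in capitals.
Rpl35 A_55_P1978151: GTATGCAGTCAAGGCCTGAGATGACAACGA
Rpl35 A_55_P2149020: gcgcaaGTATGCAGTCAAGGCCTGAGATGA
The array design places the second at the gene, chr2:38857101-38857160 (mm9), and the first at chr8:126378082-126378141, on another chromosome than the gene.

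Rps28, a small subunit protein near the mRNA exit site, has a pair of probes that overlap over 56 bases with 51 matches, again in capitals, placed at chr17:33960058-33960197 and chr17:33960058-33960193 (mm9).
Rps28 A_55_P1972841: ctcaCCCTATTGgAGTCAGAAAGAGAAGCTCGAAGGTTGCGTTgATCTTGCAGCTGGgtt
Rps28 A_55_P2027640: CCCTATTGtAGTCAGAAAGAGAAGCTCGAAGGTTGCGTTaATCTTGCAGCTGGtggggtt
For Rplp0, the stalk base protein and a common reference gene for quantitative PCR, 48 of 53 overlapping bases match, at chr5:116013404-116013463 and chr5:116013397-116013456 (mm9). Both of these Rplp0 probes had a difference above 0, at 0.22 and 0.47.
Rplp0 A_55_P2135098: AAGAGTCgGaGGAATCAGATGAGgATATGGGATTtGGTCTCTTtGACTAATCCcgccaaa
Rplp0 A_55_P1970866: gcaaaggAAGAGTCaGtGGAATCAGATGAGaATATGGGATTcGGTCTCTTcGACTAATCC

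The probes of Rps4x, the X-linked small subunit protein, do not overlap, and neither is placed at the gene: the array design puts the first at chr5:3876189-3876248 and the second at chr3:112105991-112106050 (mm9), while the RefSeq table has the gene on chromosome X. Their first 30 bases are shown.
Rps4x A_55_P2081829: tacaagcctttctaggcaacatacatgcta
Rps4x A_55_P1960764: atggatctctcttccctgagaaaaaggaat
Other genes have probes at separate places of the transcript. For Rpl23a, a protein of the peptide exit, 2 probes are adjacent in the transcript, at chr11:77995006-77995065 and chr11:77994946-77995005 (mm9).
Rpl23a A_55_P2109875: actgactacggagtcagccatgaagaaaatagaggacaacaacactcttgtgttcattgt
Rpl23a A_55_P2109874: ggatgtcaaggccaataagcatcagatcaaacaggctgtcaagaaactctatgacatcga
For Rpl26, a large subunit protein, 3 probes follow each other along the transcript, the first at chr11:68715776-68715835 (mm9).
Rpl26 A_55_P2156409: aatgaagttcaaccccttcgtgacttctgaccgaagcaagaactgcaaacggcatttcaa
Rpl26 A_55_P2080907: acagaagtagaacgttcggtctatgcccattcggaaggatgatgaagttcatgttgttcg
Rpl26 A_55_P2178525: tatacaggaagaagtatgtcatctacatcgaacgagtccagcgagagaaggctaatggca

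Of the 180 ribosomal protein probes compared, 2 were called (1.11%), both higher on low salt, against a background of 0.813% of all probes called in either direction, 0.779% higher and 0.0344% lower. The called probes were 1 of the 2 probes of Rps4x and 1 of the 2 of Rpl35, and in both genes the other probe had a difference below 0. No ribosomal protein probe was called lower (0 of 180); at an unadjusted p under 0.05, 14 probes of 12 genes were lower (7.78%, against 4.33% of all probes) and 12 were higher (6.67%, against 6.73%). A further fit paired the mice of the diets by number (the block on mouse number), a pairing that the sample labels do not state. In this paired fit 5 ribosomal protein probes were called (2.78%), 4 higher and 1 lower, against 1.34% of all probes.

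The called probe of Rps4x, A_55_P2081829, read 13.31, 13.16, 13.13 and 13.14 in mice N1 to N4 and 15.08, 14.96, 14.81 and 14.93 in mice L1 to L4. Every low salt mouse was above every normal salt mouse, and each group was tight. The means were 13.19 ± 0.09 (SD, n = 4) and 14.95 ± 0.11 (n = 4), a 3.39-fold difference (log2 difference 1.76, SE 0.118, adjusted p = 0.00175). Among the mice with Cy3 the difference was 1.72 and among those with Cy5 it was 1.80. The other Rps4x probe, A_55_P1960764, read 14.40, 14.22, 14.25 and 14.19 on normal salt and 14.38, 14.18, 14.10 and 13.93 on low salt. These groups overlapped, with a difference of -0.11 (SE 0.112, adjusted p = 0.720). The call of the first probe ended without normalization between arrays (adjusted p = 0.0634), with each array averaged to 1 value (0.124) and in the mice of either dye alone (0.125 and 0.137). In each of these fits 0 of all probes were called, and the difference of this probe was 1.75, 1.76, 1.72 and 1.80.

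Of Rpl35, probe A_55_P2149020 read 15.48, 15.29, 15.34 and 15.22 on normal salt and 16.39, 16.49, 16.19 and 16.45 on low salt. The groups did not overlap, and the difference was 1.05 (SE 0.147, adjusted p = 0.0203), or 2.07-fold. Probe A_55_P1978151 shares most of the same bases and had a difference below 0. Its values were 15.63, 15.55, 15.94 and 15.92 on normal salt and 15.08, 15.05, 15.11 and 15.25 on low salt. Here every low salt mouse was below every normal salt mouse, by -0.64 (SE 0.132, adjusted p = 0.0829), and it was called in the paired fit (adjusted p = 0.0413). The probes of Rpl35 thus stood 1.69 apart. A_55_P2149020 was no longer called without mouse N2 (adjusted p = 0.0580), N3 (0.0644), L1 (0.0653), L2 (0.0792) or L4 (0.0528), each left out alone, or without the array of N3 and N4 (0.0553) or of L1 and L2 (0.0891). The call also ended with the scanner's processed signal (difference 0.76, adjusted p = 0.144), without normalization between arrays (0.251), with arrays averaged (0.158) and in the mice with Cy3 (0.233) or Cy5 (0.137) alone. The fits without normalization between arrays, with arrays averaged and of either dye alone called 0 of all probes. In them the difference of A_55_P2149020 was 1.06, 1.05, 0.88 and 1.22.

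**Figure D1:**
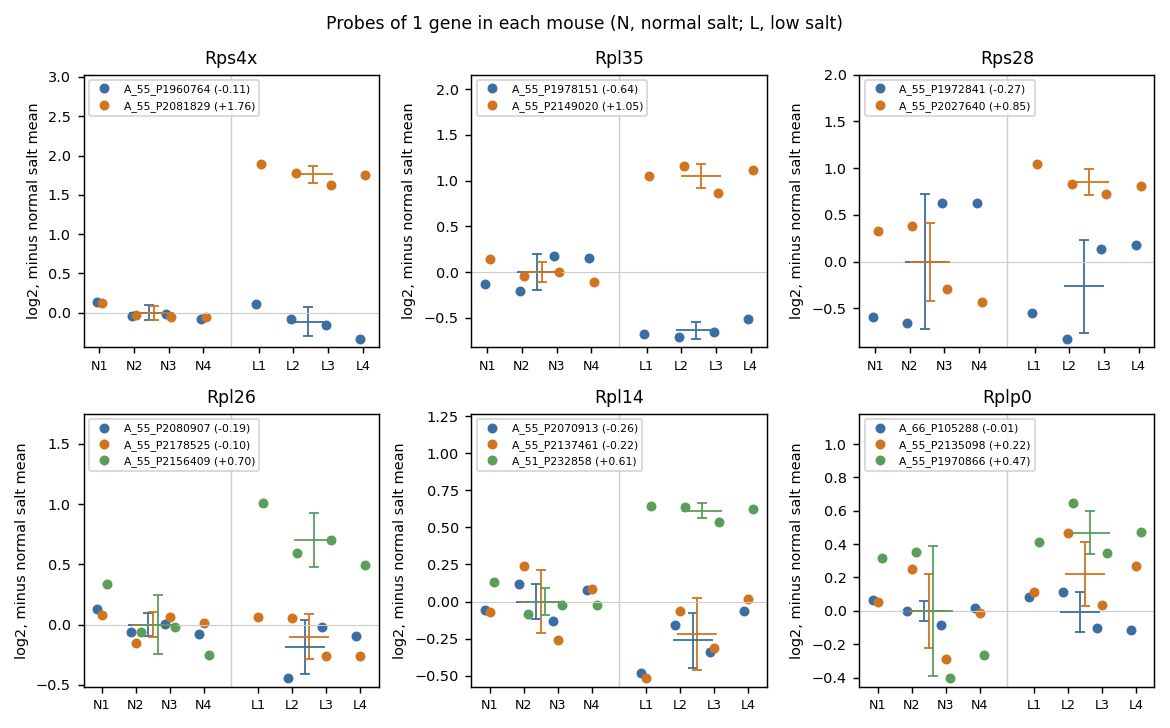
Log2 intensity of each probe of Rps4x, Rpl35, Rps28, Rpl26, Rpl14 and Rplp0 in each mouse, minus that probe's own normal salt mean (vertical axis), with mice along the horizontal axis; horizontal marks are group means, vertical bars are ± 1 SD, and the number after each probe name is its log2 difference. The highest probe of each gene differs by +0.47 (Rplp0) to +1.76 (Rps4x) and the lowest by -0.64 (Rpl35) to -0.01 (Rplp0); the highest probes of Rps4x and Rpl35 were called.

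The position of the spot on the array moved with the direction of the difference. For each spot, the local difference between the diets was taken as the median over neighbouring spots of other genes, within 10 rows and 10 columns, and a place was called uneven where it was 0.15 or more in size. Of the ribosomal protein probes, 13 (7.22%) lay at such places, against 5.26% of all probes. At 11 of them, of 10 genes, between rows 123 and 266 and columns 3 and 17 of the 532 by 85 grid, the neighbours were brighter on the low salt arrays (6.11%, against 4.48% of all probes). At the other 2, of Rpl6 and Rpl17, they were dimmer (1.11%, against 0.788%). All 11 of these ribosomal protein probes had a difference above 0, with a median of 0.57 and a range of 0.41 to 1.76. Of all 1040 probes at places of that kind, 999 were above 0, with a median of 0.44. The local difference was 0.26 at the called Rps4x spot and 0.30 at the called Rpl35 spot, and -0.00 and -0.11 at the other spot of each gene.

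**Figure D2:**
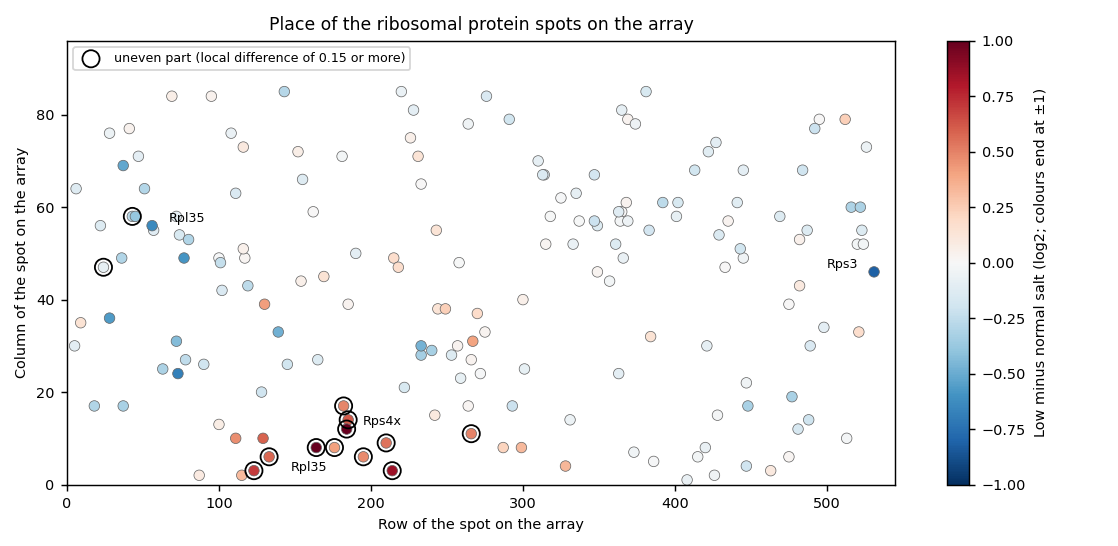
Place of each kept ribosomal protein probe on the array, by spot row (horizontal) and spot column (vertical; 1 spot is drawn for Rpl23, which has 10), coloured by its log2 difference between the diets; circles mark the 13 probes at uneven places. The 11 probes where low salt was brighter, the called probes of Rps4x and Rpl35 among them, lie between rows 123 and 266 at columns 3 to 17; the lowest probes of Rpl35 and Rps3 lie at rows 56 and 531.

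Subtracting the neighbours' trend takes the local difference at a spot from its difference between the diets. Both called probes lay where the local difference was above 0, so their smaller differences with the trend subtracted followed by construction. Rps4x A_55_P2081829 then differed by 1.5 (adjusted p = 0.00173) and Rpl35 A_55_P2149020 by 0.75 (adjusted p = 0.0274), with 0.435% of all probes called. When only neighbours at least as bright as the lower quartile of the ribosomal protein spots were used, a choice made after the data were seen, Rps4x differed by 1.37 (adjusted p = 0.00705) and Rpl35 by 0.59 (adjusted p = 0.109), with 0.198% of all probes called. A fit of even places alone leaves out both called probes by construction. Among the 167 ribosomal protein probes in that fit 0 were called, against 0.0227% of all (5 of 22013). Of these 167, 17 (10.2%, against 8.67%) had an unadjusted p under 0.05 in limma. Their median difference was -0.07, with 114 below 0, beside a median of 0.00 over all probes at even places.

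The same sequence could be read at several places for Rpl23, a large subunit protein that faces the small subunit, whose probe A_51_P108190 is printed at 10 places on each array. Its first 30 bases, placed at chr11:97638917-97638976 (mm9) with the rest of the probe, are shown.
Rpl23 A_51_P108190: acaaaacacgcattcttttcaggtctttgc
Averaged over its spots it differed by 0.04 (SE 0.0909, adjusted p = 0.892). Spot by spot, the same sequence gave differences from -0.30 to 0.68, with 4 above 0 and 6 below. The spot at row 262 and column 8, where the local difference was 0.18, read 9.99, 9.93, 9.43 and 9.47 on normal salt and 10.36, 10.40, 10.43 and 10.35 on low salt. All 4 low salt values there were above all normal salt values, with the array of N3 and N4 the lowest. The spot at row 139 and column 32 read 10.33, 10.33, 10.45 and 10.54 on normal salt and 9.83, 9.79, 10.41 and 10.42 on low salt, so that L1 and L2, which share an array, were the low mice. The local difference there was 0.04. Over the 267 kept probes with 10 spots, the spread from the lowest to the highest spot difference had a median of 0.45 and quartiles of 0.31 and 0.66, and reached 1.78; for Rpl23 it was 0.98.

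The other differences well above 0 were not past the threshold. In the large subunit, Rpl26 A_55_P2156409 read 12.24, 11.84, 11.88 and 11.65 on normal salt and 12.91, 12.50, 12.61 and 12.39 on low salt (difference 0.70, SE 0.132, adjusted p = 0.0602; 0.0197 in the paired fit). The groups did not overlap, but the other Rpl26 probes differed by -0.19 and -0.10. Rpl14 A_51_P232858 differed by 0.61 (adjusted p = 0.0544; 0.0401 in the paired fit), while its other probes differed by -0.26 and -0.22. In the small subunit, Rps15a A_55_P1960775 differed by 0.54 (adjusted p = 0.0734) and its other kept probe by -0.07. Rpl24 A_55_P1956938, measured in 3 of 4 normal salt mice, differed by 0.49 (adjusted p = 0.14), and its other probe by 0.13. Each of these 4 probes above 0 lay at an uneven place where low salt was brighter, with local differences of 0.16 for Rpl26, 0.23 for Rpl14, 0.24 for Rps15a and 0.15 for Rpl24. Differences of like size were also measured at even places, in Rpl17 A_55_P2057519 (0.59, adjusted p = 0.224, local difference 0.10), Rpl23a A_55_P2109875 (0.46, local difference 0.07), Rpl7 A_55_P2073840 (0.42, adjusted p = 0.797, local difference 0.06) and Rpl13a A_55_P2052613 (0.40, adjusted p = 0.512, local difference -0.04).

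For Rps28 the probes disagreed both between the diets and between arrays. Probe A_55_P2027640 read 15.22, 15.27, 14.60 and 14.46 on normal salt and 15.93, 15.72, 15.61 and 15.70 on low salt. Every low salt mouse was above every normal salt mouse, by 0.85 (SE 0.215, adjusted p = 0.163), yet N3 and N4 were well below N1 and N2. Its partner A_55_P1972841, 51 of 56 bases alike, read 14.79, 14.72, 16.00 and 16.00 on normal salt and 14.83, 14.55, 15.51 and 15.56 on low salt. Here N3, N4, L3 and L4 were the high mice, and the difference was -0.27 (SE 0.386, adjusted p = 0.818). Rpl11, a large subunit protein that also binds the p53 regulator Mdm2, likewise had 2 probes above 0 (0.57 and 0.49, adjusted p = 0.292 and 0.571) and 1 below 0 (-0.18, adjusted p = 0.502). The probes above 0 of both genes lay at uneven places where low salt was brighter. Local differences there were 0.22 for Rps28 and 0.21 and 0.17 for Rpl11. At the probes below 0 they were 0.04 for Rps28 and -0.02 for Rpl11.

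Differences below 0 were more frequent among ribosomal protein probes than among all probes, 116 of 180 (64.4%) against 47.8%, but small. All probes were not matched to them for intensity, and the mean log2 intensity of the ribosomal protein probes had a median of 15.11. The median difference was -0.07, with quartiles of -0.16 and 0.04 and a range of -0.81 to 1.76, beside 0.01 over all probes. By subunit the median was -0.08 over 106 large subunit probes, 71 of them below 0, -0.06 over 68 small subunit probes, 43 below 0, and 0.06 over 6 stalk probes, 2 below 0. With 1 value per gene, the median of its probes, the median was -0.05 and 51 of 79 genes were below 0. These shares have no test, since probes of 1 array are not replicates of a diet. Without the array of L3 and L4 the median was 0.01, with 83 of 171 probes below 0, beside 0.04 over all probes in that fit. With the median signal minus background it was -0.015, with 95 of 180 below 0, beside 0.02 over all probes, and with the trend of bright neighbours subtracted -0.022, with 102 below 0, beside 0.03. It was -0.03 without N1, -0.04 without L3, -0.04 without the array of N1 and N2, -0.04 in the mice with Cy5 alone and -0.11 without the array of N3 and N4.

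**Figure D3:**
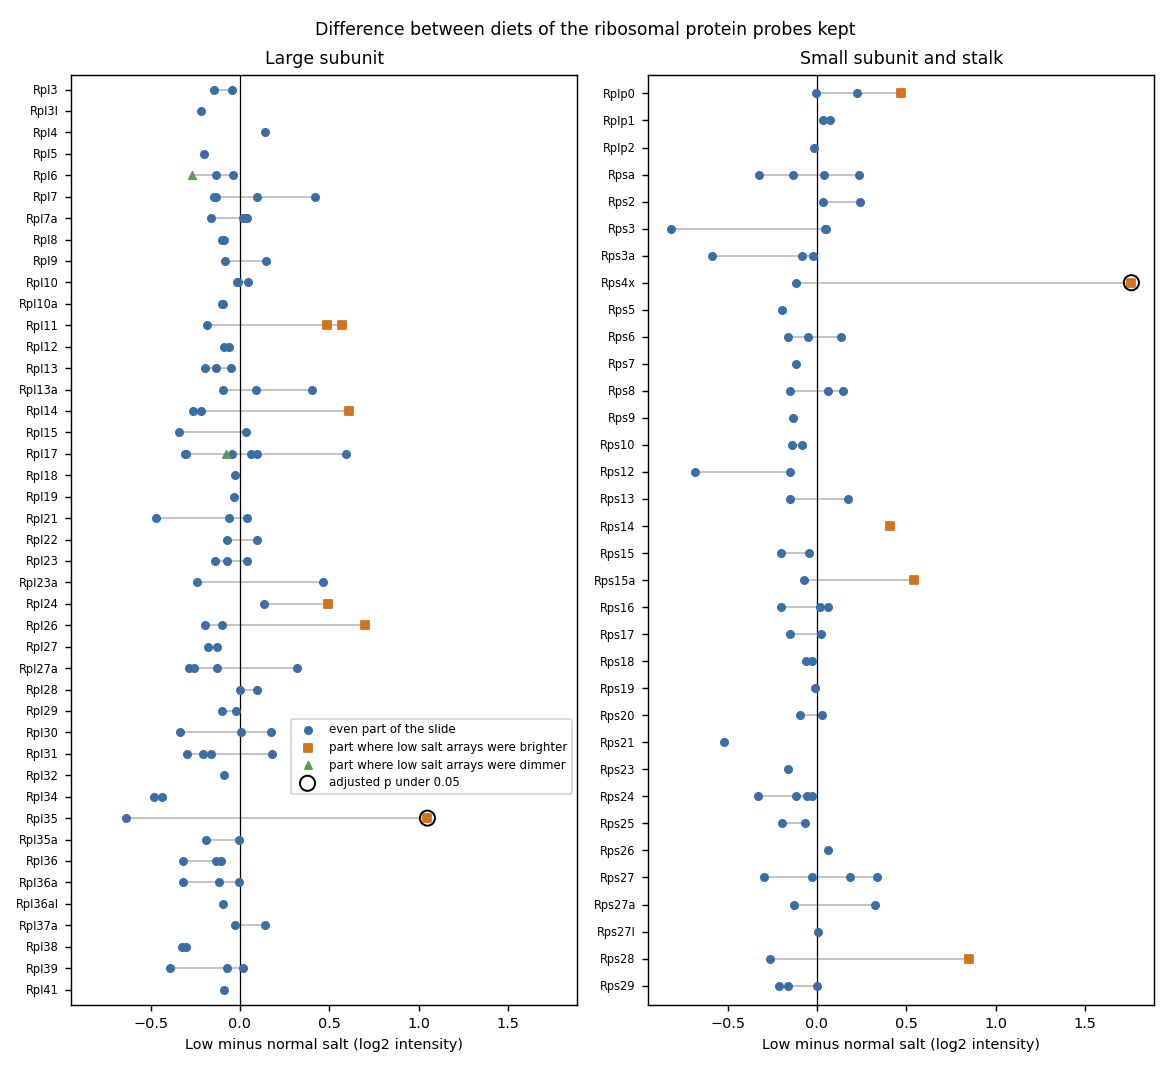
Log2 difference (horizontal axis, low minus normal salt) of the kept probes of the genes reported here, with 1 row per gene, a grey line from the lowest to the highest probe of a gene, orange squares and green triangles for probes at uneven places, and rings for the 2 called probes. Most probes lie below 0 (median -0.07 over all 180 kept probes), and the orange squares are all above 0.

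Mouse by mouse, the median deviation of the ribosomal protein probes from each probe's mean was 0.12, 0.03, 0.00 and 0.02 in N1 to N4 and 0.04, 0.01, -0.08 and -0.03 in L1 to L4. L3 and L4 were the lowest mice and N1 the highest, while L1 lay above 3 of the 4 normal salt mice, so the groups overlapped. The SD of these medians within a diet was 0.05, close to the size of the median difference itself. Over all probes the same medians lay between -0.02 and 0.05.

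**Figure D4:**
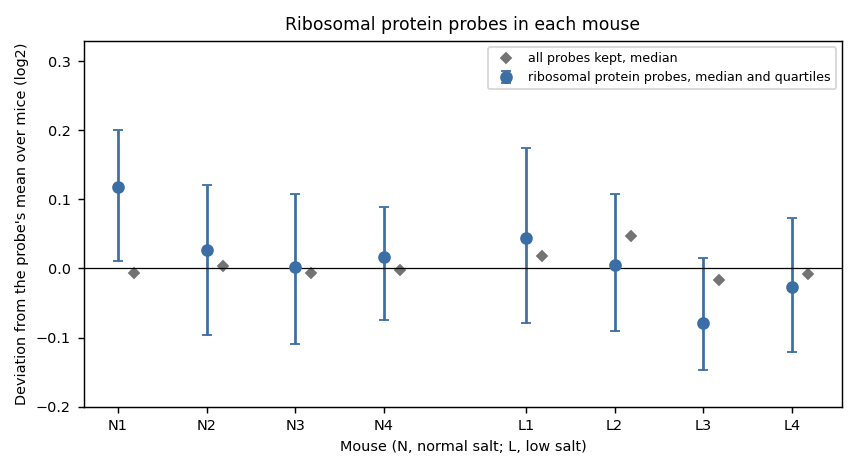
Deviation of the ribosomal protein probes from each probe's mean over the mice (vertical axis, log2), as the median (points) and quartiles (bars) in each mouse, beside the median over all kept probes (grey diamonds). N1 is highest at 0.12 and L3 lowest at -0.08, and the quartiles of all 8 mice overlap.

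The diets did not overlap in 24 of the 180 probes (13.3%), against 12.7% of all probes. The 10 higher on low salt (5.56%, against 7.79%) differed by 0.32 to 1.76, and 8 of them lay at uneven places. The 14 lower on low salt (7.78%, against 4.94%), of 13 genes, differed by -0.81 to -0.16, and 0 of them lay at uneven places. Rpl38, a large subunit protein studied for its part in translating Hox mRNAs, was the gene with 2 such lower probes. Its probe A_55_P2091308 read 15.92, 15.99, 16.02 and 16.04 on normal salt and 15.67, 15.58, 15.66 and 15.84 on low salt (difference -0.30, adjusted p = 0.361). Its probe A_55_P1955059 gave 16.03, 16.15, 15.85 and 16.01 and then 15.80, 15.82, 15.45 and 15.67 (difference -0.33, adjusted p = 0.371). The probes overlap over 54 bases, 53 of them alike, lay at rows 80 and 477, and stood 0.02 apart, against 1.69 for the pair of Rpl35.

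The lowest difference belonged to Rps3, a small subunit protein at the mRNA entry that also acts in DNA repair. Its probe A_51_P318640, which the array design does not place on the genome, read 14.12, 13.97, 13.98 and 13.93 on normal salt and 13.35, 13.50, 12.81 and 13.10 on low salt. All low salt mice were below all normal salt mice (difference -0.81, SE 0.18, adjusted p = 0.108), and the other Rps3 probes differed by 0.04 and 0.05. With the median signal minus background as the signal this difference was called (-0.78, adjusted p = 0.0357).

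Several of the other lowest differences came from a single array. Rps3a A_55_P2056190 read 15.46, 15.41, 15.53 and 15.47 on normal salt, 14.54 and 14.44 in L1 and L2, and 15.29 and 15.26 in L3 and L4 (difference -0.59, adjusted p = 0.361). L1 and L2 were lower by most of a log2 unit while L3 and L4 were near the normal salt mice. The same order held for Rpl21 A_55_P2082779 (13.89 and 13.81 in L1 and L2, 14.72 and 14.72 in L3 and L4) and both probes of Rpl34 (15.15 and 14.96, then 15.73 and 15.84 for A_55_P2029022; 14.22 and 14.01, then 14.76 and 14.74 for A_55_P2024358). Rps12 A_55_P1963080, measured in 3 of the low salt mice, read 14.72 in L1 and 15.74 and 15.78 in L3 and L4. Other probes of Rps3a, Rps12 and Rpl21 differed by -0.15 to 0.04. The Rpl34 spot A_55_P2029022, at row 139 and column 33, is next to the Rpl23 spot described above that was also low in L1 and L2. The other Rpl34 probe, A_55_P2024358, had the same order at row 72 and column 31. Local differences at these Rpl34 spots were 0.04 and -0.08, and the part of position in their values was not tested. Rps21 A_52_P740562, the sole probe of its gene, was instead low in L3 and L4, at 13.62 and 13.61 against 14.47 and 14.11 in L1 and L2 and 14.28 to 14.70 on normal salt (difference -0.52, adjusted p = 0.411).

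Without the array of L3 and L4, low salt rests on the array of L1 and L2 alone, so diet and that array cannot be told apart. There, 13 of 171 ribosomal protein probes were called, 5 higher and 8 lower. Rps3a at -0.98 (adjusted p = 0.0121) and Rpl21 at -0.90 (adjusted p = 0.0121) were among the lower ones. Both were described above as lower in L1 and L2, so their larger differences follow from the mice left in. In that fit 5.96% of all probes were called, 2.44% higher and 3.52% lower, against 7.6% of the ribosomal protein probes. Without the array of N1 and N2, normal salt likewise rests on the array of N3 and N4 alone. There, 7 of 178 ribosomal protein probes were called (3.93%), 6 higher and 1 lower, against 1.39% of all probes, 1.11% higher and 0.272% lower. Rps28 A_55_P2027640 at 1.21 and Rplp0 A_55_P1970866 at 0.80 were among the higher ones. On normal salt both were low in N3 and N4, so their larger differences again follow from the mice left in.

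**Figure D5:**
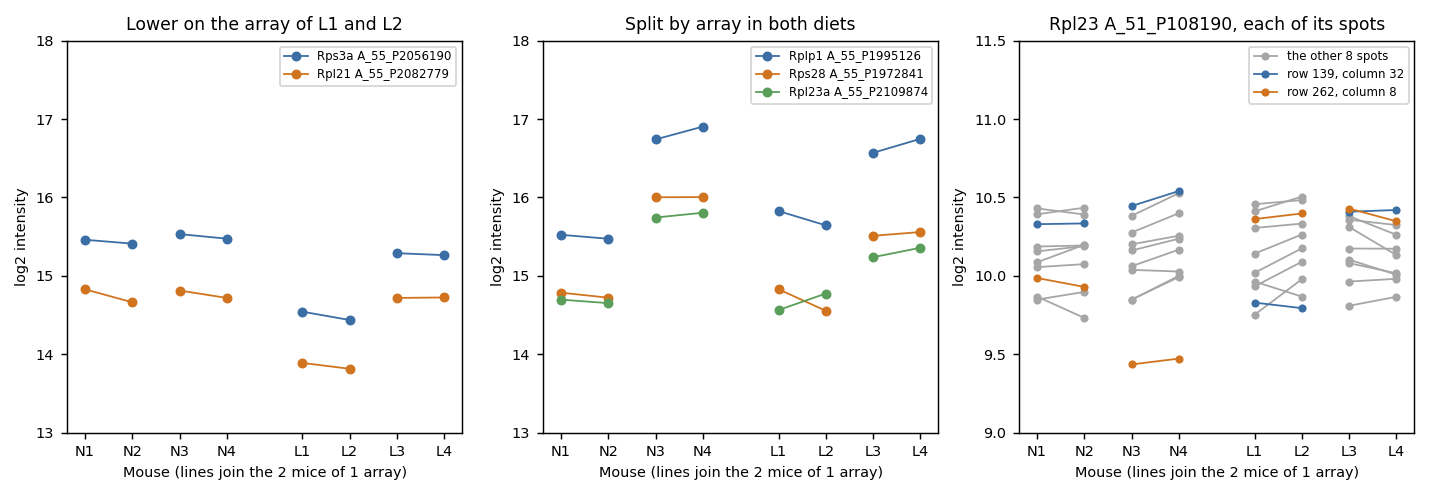
Log2 intensity by mouse, with lines joining the 2 mice of an array: Rps3a and Rpl21 probes that were lower in L1 and L2 (left), Rplp1, Rps28 and Rpl23a probes that split by array in both diets (middle), and the 10 spots of the Rpl23 probe (right), with its highest and lowest difference in colour. In the left panel L1 and L2 lie between 13.81 and 14.54 and the other mice between 14.66 and 15.53, and in the right panel the spots of 1 sequence differ between the diets by -0.30 to 0.68.

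The gap between the arrays of 1 diet was set beside the difference between the diets. The gap compares 1 array with the other, while the difference between the diets averages both arrays of each diet. Their sizes are therefore not like for like, and whether the diets stood further apart than arrays of 1 diet was not tested. Over ribosomal protein probes the median absolute gap was 0.11 between the normal salt arrays and 0.15 between the low salt arrays, beside 0.13 between the diets, and over all probes these were 0.12, 0.15 and 0.13. A gap over 0.5 was seen in 17 probes of 14 genes between the normal salt arrays, in 13 probes of 12 genes between the low salt arrays, and in 14 probes between the diets. In 3 probes, of Rplp1, Rps28 and Rpl23a, it was over 0.5 in both diets. The stalk protein Rplp1 had the largest such gaps, 1.32 and 0.92, and its probe A_55_P1995126 read 15.52, 15.47, 16.74 and 16.90 in N1 to N4 and 15.83, 15.64, 16.57 and 16.75 in L1 to L4. Mice 3 and 4 of each diet were the high ones, and the diets differed by 0.04 (SE 0.415). Its other probe, A_55_P2155826, lay between 15.39 and 15.81 in all 8 mice (difference 0.08). Rpl23a A_55_P2109874 split in the same way (14.70, 14.65, 15.74 and 15.80, then 14.56, 14.77, 15.24 and 15.36; difference -0.24, adjusted p = 0.804), while the adjacent probe A_55_P2109875 was higher in every low salt mouse (13.56, 13.48, 13.76 and 13.78, then 13.94, 14.14, 14.15 and 14.20; difference 0.46, adjusted p = 0.195).

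Of the 61 genes with 2 or more kept probes, 20 had all probes below 0, 5 had all above 0 and 36 had probes on both sides. The same share over other genes was not taken. The median SE of a ribosomal protein probe was 0.12, so the sign of a difference near 0 is uncertain. Rpl10, for example, counts among the mixed genes with probes from -0.02 to 0.05. The range within a gene had a median of 0.30 and passed 0.5 in 20 genes. The 26 pairs whose probes overlap, in 21 genes, stood a median of 0.21 apart (0.01 to 1.69), and 12 of them had opposite signs. The 132 pairs that do not overlap also stood a median of 0.21 apart (0.00 to 1.87), and 66 had opposite signs. Where both probes of an overlapping pair lay at even places the median gap was 0.19 (19 pairs), and where at least 1 lay at an uneven place it was 0.67 (7 pairs). For pairs without overlap the same medians were 0.19 (117 pairs) and 0.48 (15 pairs). The widest genes were Rps4x at 1.87, Rpl35 at 1.69, Rps28 at 1.12, Rpl17 at 0.90, Rpl26 at 0.89 and Rpl14 at 0.87; Rpl17, a protein of the peptide exit with 7 probes, ran from -0.31 to 0.59. The array design placed 24 kept probes of 16 genes on another chromosome than that of the RefSeq gene, and these had a median of -0.11 with 15 below 0, beside -0.06 with 100 of 155 below 0 for those on the gene's chromosome.

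No probe of a paralog pair below or of a common reference gene was called. Rpl3l, the striated muscle paralog, read 14.32, 14.45, 14.57 and 14.58 on normal salt and 14.08, 14.50, 14.26 and 14.22 on low salt; the groups overlapped (difference -0.22, SE 0.15, adjusted p = 0.608). Rpl3 itself differed by -0.15 and -0.04 on its probes. Rps27l, induced through p53, differed by 0.01, and the 4 probes of Rps27 by -0.30 to 0.33. The X-linked Rpl36a had 3 probes at -0.32 to -0.01 and its paralog Rpl36al 1 at -0.09. The 3 probes of Rpl10 lay between -0.02 and 0.05, and those of Rpl22 at -0.07 and 0.09. Rpl39, a small basic protein in the exit tunnel, differed by -0.39, -0.07 and 0.02, with adjusted p of 0.416 or more. The probe at 0.02, A_66_P126080, read 6.79 to 6.84 in L1 to L3. That is near the lowest signal well above background (6.40 to 6.85), so its difference says little about Rpl39.

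Rpl13a, Rps18 and Rplp0 are common reference genes. Rps18, at the head of the small subunit, differed by -0.06 and -0.03. The probes of Rpl13a differed by -0.10, 0.09 and 0.40, and those of Rplp0 by -0.01, 0.22 and 0.47, with adjusted p of 0.422 or more for both genes. The Rplp0 probe with the largest difference, A_55_P1970866, read 16.02, 16.06, 15.30 and 15.44 on normal salt and 16.12, 16.35, 16.06 and 16.18 on low salt, with N3 and N4 the low mice, and lay at a place with a local difference of 0.34. Rps6, the small subunit protein phosphorylated downstream of mTOR, differed by -0.16, -0.05 and 0.14. Rpsa, also a laminin receptor, differed by -0.33 to 0.24 over 4 probes, Rplp2 by -0.02, and Rps27a, made as a fusion to ubiquitin, by -0.13 and 0.33.

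Of the probes not kept, 7 in all, both of Rpl10l and the 1 of Rpl39l, which are testis paralogs of Rpl10 and Rpl39, left their genes with no value. Probes of Rps15a, Rps27a and Rpl6 were also not kept, and these genes had other probes. The log2 values of the probes of these 5 genes that were not kept lay between 5.98 and 6.93.

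Genes that build ribosomes or share their mode of translation were read from the same fit. Of 48 probes of 34 ribosome biogenesis genes 1 was called, against 0.813% of all probes, and 3 had an unadjusted p under 0.05 in limma, against 11.1%. The called probe was that of Sbds, which releases Eif6 from new large subunits. It read 10.04, 9.94, 10.02 and 9.87 on normal salt and 11.09, 10.98, 11.10 and 10.95 on low salt (difference 1.06, SE 0.0849, adjusted p = 0.00179). The diets did not overlap, and the local difference at this spot was 0.22, so the fit of even places leaves it out. No probe of the 3 lists read here was called (0 of 93, or of 92 in either dye alone) in the fits that follow. They used the scanner's processed signal, the trend of bright neighbours subtracted, no normalization between arrays, arrays averaged, Cy3 alone and Cy5 alone. In that order, 45, 46, 0, 0, 0 and 0 of all probes were called. The unadjusted p from limma was under 0.05 for 8, 16, 3, 5, 5 and 3 list probes. Over all probes it was so for 2925, 3596, 977, 2010, 2323 and 1590 of 23236, or of 23060 and 23061 in Cy3 and Cy5 alone. The median over the biogenesis list was 0.12. Of 23 probes of 15 genes for elongation factors and other mRNAs with a 5′ pyrimidine run 0 were called, with 2 at an unadjusted p under 0.05 in limma, and the median was -0.07; the smallest p belonged to Eif5a (0.29, adjusted p = 0.373) and Tpt1 (-0.48, adjusted p = 0.414). Of 22 probes of 13 genes for ribosomal proteins under other names and for the mTOR and Larp1 control of translation 0 were called, with 2 at an unadjusted p under 0.05, and the median was -0.01; the smallest p belonged to the S6 kinase gene Rps6kb1 (0.32, adjusted p = 0.379) and the mTORC1 subunit gene Rptor (-0.36, adjusted p = 0.426). In the paired fit 2 of the 93 probes over the 3 lists were called, against 1.34% of all probes.

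The 5′ pyrimidine run was looked for in the RefSeq promoters (GRCm38.p6), which hold 60 of the genes. A gene was counted where a C within 5 bases of the annotated start was followed by at least 5 bases that are each C or T, on the gene's strand alone, whatever the base before that C. This held for 25 of 60 ribosomal protein genes (41.7%) and 3229 of 27025 genes (11.9%). Rpl35, whose probes disagreed, is shown at chr2:39005112-39005161 on the minus strand, with 30 bases before the start and 20 after. Capitals mark the 16 bases of C or T counted from 5 bases before the start; the bases just before them are C as well, so the whole stretch is longer. Rps4x, Rps28, Rpl26 and Rplp0 had no such run at their annotated start; that of Rps4x, at chrX:102189372-102189421 on the minus strand, is set beside it.
Rpl35 start: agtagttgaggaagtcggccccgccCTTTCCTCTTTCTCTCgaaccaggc
Rps4x start: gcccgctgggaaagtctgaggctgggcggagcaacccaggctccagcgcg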

How the data were processed

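The authors deposited scanner tables with the intensity and local background of each spot in both channels, which per the file headers were made with Agilent Feature Extraction 11.5.1.1 (protocol GE2_1105_Oct12, mm9 annotation). Both samples of an array carry the same table, and each was read in its own dye. The deposited value table of the series was not used, since its rows could not be matched to spots.

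The local background was taken from each spot's mean signal by normexp with an offset of 50, followed by loess on each array and Aquantile across arrays. Software was R 4.3.3, limma 3.58.1 and, for the block, statmod 1.5.0. Flagged spots were left out, as were control spots after normexp; a flagged background took the channel median. Spots of a probe were averaged, and probes well above background in at least 4 of 8 samples were kept. The model held diet and dye, with array as a random block (correlation 0.55), 2-sided, with Benjamini-Hochberg adjustment over all probes. A missing value is left out of its probe's fit. Arrays give no read depth; their number, 4, limits the precision. The labels give each mouse as a separate sample.

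Same-numbered mice of both diets share a dye, and the sample labels state no pairing. Their deviations from the group means correlated at 0.31, 0.14, 0.16 and 0.20, each over 0.1, and these deviations still hold the dye. Within a dye the correlations were 0.19 for mice 1 and 3 and 0.11 for mice 2 and 4. The numbers were taken to pair the mice in an alternative fit, and whether they do was not tested. Members and lists were chosen with earlier results of these data known. Named genes were those with a called probe, the 10 highest and 10 lowest probes, the 6 genes with the widest range between probes, and paralogs and reference genes named whatever their result; Rpl23, Rpl23a and Rpl38 were chosen after their values were seen. Some genes enter the counts but are not reported here by name. Names are those of the scanner files; the accessions of 169 member probes are in the RefSeq table and 18 are not. Rps4l and Rpl40 are not names in the files. 

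Alternatives changed the signal, the normalization, the filter, the position trend, the probe per gene, the block, the dye and the samples.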

Additional observations from a re-analysis of the deposited data

Results flagged for a closer look

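In groups of 4 mice, 1 mouse stood apart from the other 3 when its gap to the nearest of them, divided by the range of the group, exceeded Dixon's critical value for 4 samples. Of 134 groups of named ribosomal protein probes 6 did so, and chance gives about 1 in 20. On normal salt these were mouse N2 for Rps6 A_55_P1955239 (gap share 0.856; 14.59 against 14.64 to 14.65), N1 for Rpl17 A_55_P1998461 (0.938; 8.81 against 8.57 to 8.59) and N1 for the called Rps4x probe A_55_P2081829 (0.842; 13.31 against 13.13 to 13.16). On low salt they were L1 for Rpl39 A_55_P1957291 (0.887; 14.54 against 13.97 to 14.03), L4 for Rpl39 A_66_P126080 (0.887; 7.31 against 6.79 to 6.84) and L2 for Rpl3 A_55_P2030802 (0.924; 13.68 against 13.91 to 13.93). The Rps4x call held without N1.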

How the results depend on the processing

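As reported, limma called 189 probes, 2 of them of ribosomal proteins and 1 of the lists for translation and ribosome biogenesis. The counts over all probes, ribosomal protein probes and those lists were 45, 1 and 0 with the scanner software's processed signal, 185, 4 and 2 with the median signal minus background, 805, 9 and 2 without the array block, and 312, 5 and 2 with the mouse number as a replicate block. The block added calls for Rpl35 A_55_P1978151, Rpl14 and Rpl26 and changed no other call of a named probe. With no normalization between arrays, with each array averaged to 1 value, and in Cy3 or Cy5 mice alone, 0 probes were called in limma; the unadjusted p was under 0.05 for 977, 2010, 2323 and 1590 of all probes, for 15, 12, 15 and 12 of the ribosomal proteins and for 3, 5, 5 and 3 of the lists. With the local trend subtracted 101 of all probes were called, and with the trend of bright spots, chosen after the data were seen, 46, 1 and 0. In even places alone, which leave out the called Rps4x, Rpl35 and Sbds probes, the counts were 5, 0 and 0 (unadjusted 1908, 17 and 4). With the brightest probe of each gene 1 ribosomal protein probe was called. Leaving out each mouse gave 70 to 154, 1 to 2 and 1 calls, with the median of the ribosomal proteins from -0.08 to -0.03. Leaving out the array of N1 and N2 gave 321, 7 and 2, that of N3 and N4 269, 2 and 3, that of L1 and L2 88, 1 and 1, and that of L3 and L4 1381, 13 and 5, with a median of 0.011 in place of -0.07. Each of these fits leaves 1 diet with 1 array, so diet and that array cannot be told apart in it. The cause of these shifts was not tested, apart from the fewer arrays or probes that an alternative holds by construction. The Rps4x rise was called in 21 of 25 alternatives (difference 1.37 to 1.84) and the Rpl35 rise in 13 of 26 (0.59 to 1.22). Each array holds 1 diet, and the spread of 2 arrays a diet is all that the fit has to set diet apart from array. By the scan names all 4 arrays share 1 slide number, with normal salt at positions 1 and 2 and low salt at 3 and 4. Diet and the place of an array on the slide therefore cannot be told apart. Probes near the lowest signal well above background, 6.40 to 6.85, have little room below them.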
